A study of Homo sapiens with 6 samples.

Results

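Chromosome 19 microRNA cluster (C19MC) miRNAs that were already present in control-transfected RMUG-S-ip1 cells are described here: miR-1323, miR-512-3p, miR-512-5p, miR-521, miR-522-3p and the probe that miR-517c-3p and miR-519a-3p share. They were taken by name from the authors' deposited comparison table as the listed cluster members whose signal lay above the library floor after control siRNA, and were read by accession in the signal table. They make up 6 of 800 miRNA rows, 6 of the 177 rows with a name and 6 of the 22 named C19MC rows. All 6 passed the filter on low signal (at least 30 in at least 3 of the 6 libraries), as did 106 miRNAs in all. They were thus chosen by their signal in the control libraries, so that signal is given as a description only, and the control side of each difference is not independent of the choice.

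RMUG-S-ip1 is an established human mucinous ovarian cancer line. The cells received either a control siRNA or an siRNA against PRKRA (siPRKRA), with the medium replaced 6 hours later, and 100 ng of total RNA per sample was counted with the nCounter miRNA assay, in which colour-coded reporters are counted without amplification. There were 3 libraries per group, and both groups share the line, the culture conditions and the transfection reagent. The labels do not say whether the replicates were separate cultures or how many siRNAs were used, PRKRA mRNA was not analysed here, and p-values therefore cover the spread among these libraries alone, which may be technical.

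C19MC is a primate-specific, paternally expressed cluster whose miRNAs are abundant in placenta and in undifferentiated stem cells and are silent in most adult tissues, although some tumours express them. Each hairpin is cut by Drosha and then by Dicer into a 5p and a 3p arm, and an arm loaded into Argonaute finds its targets mainly through the seed, bases 2 to 8. PACT, the protein made from PRKRA, binds double-stranded RNA, works together with Dicer and activates the kinase PKR.

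The mature sequences show which members can share targets and which probes face nearly identical miRNAs. Of 7 mature names behind the 6 probes, 6 were matched in RefSeq (GRCh38.p14), all on the plus strand of chromosome 19, within a cluster of 46 microRNA genes that runs from chr19:53666679-53762430. The name without a match was miR-522-3p, so its sequence was not printed or compared. The 6 matched sequences are printed 5′ to 3′ with the seed in capitals.
miR-512-5p: cACUCAGCcuugagggcacuuuc
miR-512-3p: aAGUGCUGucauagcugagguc
miR-1323: uCAAAACUgaggggcauuuucu
miR-521: aACGCACUucccuuuagagugu
miR-517c-3p: aUCGUGCAuccuuuuagagugu
miR-519a-3p: aAAGUGCAuccuuuuagagugu

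No pair of these 6 sequences had the same seed. miR-512-3p and miR-519a-3p both carry AAGUGC, the run of 6 bases that is also found near the start of the miR-302, miR-371 to miR-373 and miR-17 families, at base 1 in the first and base 2 in the second. At the other end, miR-517c-3p and miR-519a-3p shared a run of 19 bases, and miR-521 shared the last 10 bases, UUUAGAGUGU, with each of them. miR-512-5p and miR-512-3p come from 2 gene copies, MIR512-1 (3p arm at chr19:53666729-53666750) and MIR512-2 (3p arm at chr19:53669213-53669234). miR-1323 lies next to them at chr19:53671978-53671999. miR-521 comes from MIR521-2 (chr19:53716647-53716668) and MIR521-1 (chr19:53748689-53748710), miR-517c-3p from MIR517C (chr19:53741369-53741390), and miR-519a-3p from MIR519A1 (chr19:53752449-53752470) and MIR519A2 (chr19:53762397-53762418). Copies with the same mature sequence cannot be told apart by the assay.

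The hairpin of MIR512-1 (chr19:53666679-53666762, 84 bases) is shown because its 2 arms are both measured; the arms are in capitals, the 5p arm first.
MIR512-1: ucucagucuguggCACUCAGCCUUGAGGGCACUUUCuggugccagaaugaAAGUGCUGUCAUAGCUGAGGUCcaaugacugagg

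The deposited signal is a count above background multiplied by 1 factor per library, with low values set to a floor of 1 to 1.53. Before the factor, the miRNA rows summed to 51641 to 56192 counts in control libraries and to 142684 to 305261 in siPRKRA libraries, and the factors were 1.32 to 1.53 and 0.231 to 1.09. In siPRKRA replicate 2, miR-4454 and miR-720 took 72.2% of the miRNA signal, against 4.04% to 8.42% in the other libraries, and this library correlated with the others at 0.833 to 0.884 across the tested miRNAs. The fold changes of the 6, the calls and the miR-512 arm difference are given with and without it below. Comparisons of pattern and the estimates of miRNAs outside the 6 are given only with it. Among cell type markers, the epithelial miR-200 list (5 named of 5, with miR-200a-3p and miR-429 at the floor in all control libraries) summed to a signal of 5872 to 6938 in control and 4329 to 5361 in siPRKRA libraries. The pluripotency list (2 named of 8) summed to 138 to 188 and 27.4 to 131, the blood list (miR-144-3p alone of 5) to 6.07 to 151 and 1.09 to 39.4, and endothelial miR-126-3p stood at 214 to 229 and 161 to 216. Of these lists 0 tested members passed in limma, and their part in the results below was not tested.

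After PRKRA silencing, none of the 6 C19MC miRNAs passed the test, although each had a higher mean signal than in control cells. In limma 0 of the 6 had an adjusted p under 0.05, against a background of 0% (0 of 106 tested miRNAs), and 0 of the 6 but 17 of the 106 had an unadjusted p under 0.05. With limma-voom, run on the counts above background, the number was again 0. The adjusted p-values of the 6 lay between 0.293 and 0.799. All 6 had an estimate above 0, where 41.5% of the tested miRNAs did. With signal scaled by the 5 mRNA rows of the panel, however, 4 of the 6 lay below 0, where 15.1% of the tested miRNAs lay above. The geometric mean of these 5 rows was 4233 in siPRKRA replicate 2 and 1445 to 1924 in the other libraries. The part of that library in the reversal was not tested. In the deposited scaling the median log2 fold change of the 6 (siPRKRA over control siRNA, on the log2(signal + 1) scale) was 0.46, beside -0.06 over all tested miRNAs. Without siPRKRA replicate 2 the 6 estimates were 0.27 for miR-1323, 0.53 for miR-512-3p, 0.29 for miR-512-5p, 0.60 for the miR-517c-3p and miR-519a-3p probe, 1.71 for miR-521 and 0.76 for miR-522-3p, and 0 of the 6 passed in limma, against 3.77% of the tested miRNAs (4 of 106, all lower). In these bulk RNA samples, a change in the share of cells that express a miRNA cannot be told apart from a change in its amount per cell.

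The pair of arms of miR-512 stands at the 5′ end of the cluster. miR-512-3p had a signal of 30, 48.98 and 53.1 in control siRNA replicates 1, 2 and 3 and of 64.97, 70.7 and 59.6 in siPRKRA replicates 1, 2 and 3. The groups did not overlap, with all siPRKRA libraries above all control libraries, and the lowest library was control replicate 1. It was the only one of the 6 of which this was true, 1 of 6 against a background of 12.3% of the tested miRNAs with siPRKRA higher and no overlap. The control mean was 44.03 ± 12.3 (SD, n = 3) and the siPRKRA mean 65.1 ± 5.596 (SD, n = 3), a difference of 0.59 ± 0.27 (SE) in log2 signal (limma, adjusted p = 0.299). With 25 counts, an assumed amount, of subtracted background added back to every probe, that estimate was -0.01, and without control siRNA replicate 1 it was 0.34. With the 25 counts added back, 4 of the 6 members and 18.9% of the tested miRNAs lay above 0. The median of all tested miRNAs was then -0.17.

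miR-512-5p, which was reported to repress the anti-apoptotic gene MCL1 in gastric cancer cells, had a signal of 102, 56.6 and 74.1 in control libraries, and after siPRKRA it was 95.5, 69.7 and 89.1. All siPRKRA values lay inside the control range. The means were 77.5 ± 22.8 (SD, n = 3) and 84.7 ± 13.4 (SD, n = 3), a difference of 0.16 ± 0.26 (SE) in log2 signal (limma, adjusted p = 0.799), the smallest estimate of the 6. It was -0.05 without control siRNA replicate 2, 0.37 without control siRNA replicate 1, 0.06 without siPRKRA replicate 1 and 0.29 without siPRKRA replicate 2, and -0.17 with 25 counts added back.

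Because both arms come from the same hairpins, the ratio of their signals within a library is nearly free of the library factor; probes differ in efficiency, so only its change between libraries can be read. The 5p over 3p ratio was 3.39, 1.16 and 1.40 in control libraries, and after siPRKRA it was 1.47, 0.985 and 1.497. Control replicate 1, the library with the highest 5p and the lowest 3p signal, stood apart from the other five. On the log2 scale the ratio was 0.80 ± 0.81 (SD, n = 3) after control siRNA and 0.37 ± 0.34 (SD, n = 3) after siPRKRA, a difference of -0.44 that did not exceed the spread (exact two-sided permutation p = 0.6, smallest possible 0.1). Without siPRKRA replicate 2 the difference was -0.24. Without control siRNA replicate 1 the difference was 0.03 (exact permutation p = 1). In that library the ratio rested on 68 and 20 counts above background, the latter with a 95% Poisson interval of 12.2 to 30.9.

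**Figure D1:**
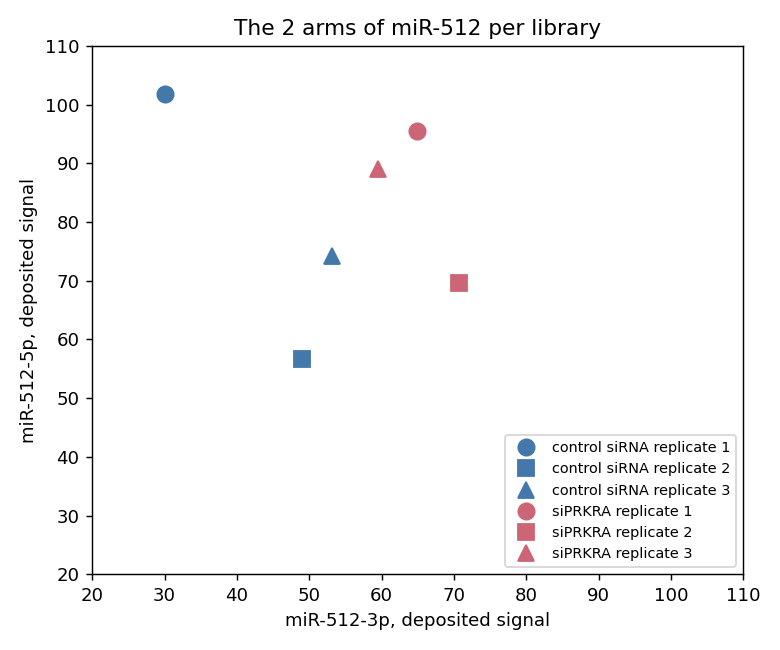
Deposited signal of miR-512-5p (vertical axis) against miR-512-3p (horizontal axis), 1 point per library, blue for control siRNA and red for siPRKRA, with the marker shape giving the replicate. Control replicate 1 lies at the upper left, at 102 for the 5p and 30 for the 3p arm, away from the other libraries.

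miR-1323, whose gene follows the MIR512 copies, had a signal of 114, 94.8 and 89.9 in control libraries, and after siPRKRA it was 129, 130 and 110. siPRKRA replicates 1 and 2 lay above every control library and replicate 3 lay within the control range. Its coefficient of variation was 12.7% in control libraries, the lowest of the 6 (the other five had 28.0% to 45.0%), and 9.45% in siPRKRA libraries, where miR-512-3p had 8.60%. The means were 99.5 ± 12.6 (SD, n = 3) and 123 ± 11.6 (SD, n = 3), and the difference in log2 signal was 0.31 ± 0.16 (SE; limma, adjusted p = 0.331).

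miR-521, reported to target the DNA repair gene ERCC8 in prostate cancer cells, had the largest estimate of the 6 and the widest spread. It reached the filter value of 30 in 1 control and 3 siPRKRA libraries, so it was tested only because of the group in which it was high, and the size of its estimate is not independent of the filter. Its signal was 50.9, 29.2 and 21.5 in control libraries, and after siPRKRA it was 113, 38.2 and 101. siPRKRA replicates 1 and 3 lay above every control library, whereas siPRKRA replicate 2 lay between control replicates 1 and 2. The means of 33.9 ± 15.3 (SD, n = 3) and 83.9 ± 40.0 (SD, n = 3) correspond to a difference of 1.23 ± 0.52 (SE) in log2 signal, with an unadjusted 95% interval of -0.04 to 2.496 (limma, adjusted p = 0.293). Without siPRKRA replicate 2 it was 1.71 (limma adjusted p = 0.0651), and with 25 counts added back it was 0.47. Control values of miR-521 rested on 34, 19 and 16 counts above background and siPRKRA values on 487, 35 and 215. Its coefficient of variation in control libraries, 45.0%, was above the 17.1% to 25% that counting error alone gives at those counts; these counting errors leave out the error of the subtracted background.

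The probe shared between miR-517c-3p and miR-519a-3p reads a placental miRNA with NF-κB-activating effects in cell culture and a member of the miR-519 group that represses the RNA-binding protein HuR. Its signal was 123, 70.3 and 82.0 in control libraries, and after siPRKRA it was 150, 95.7 and 123. siPRKRA replicate 1 stood clear above the control libraries, replicate 3 just passed the highest of them (122.91 against 122.73), and replicate 2 lay within their range. The means were 91.7 ± 27.5 (SD, n = 3) and 123 ± 27.4 (SD, n = 3), a difference of 0.44 ± 0.27 (SE) in log2 signal (limma, adjusted p = 0.410). The difference was 0.27 without control siRNA replicate 2, 0.28 without siPRKRA replicate 1 and 0.66 without control siRNA replicate 1. How much of the signal either miRNA gave cannot be read from 1 probe.

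miR-522-3p had a signal of 123, 67.3 and 91.2 in control libraries, and after siPRKRA it was 163, 85.9 and 148. Replicates 1 and 3 of siPRKRA were above every control library, and replicate 2 was within the control range. The means were 93.8 ± 27.8 (SD, n = 3) and 132 ± 40.8 (SD, n = 3), a difference of 0.48 ± 0.33 (SE) in log2 signal (limma, adjusted p = 0.425). Without siPRKRA replicate 2 the estimate was 0.76 (limma adjusted p = 0.119), without control siRNA replicate 2 it was 0.27 and without siPRKRA replicate 1 it was 0.31.

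**Figure D2:**
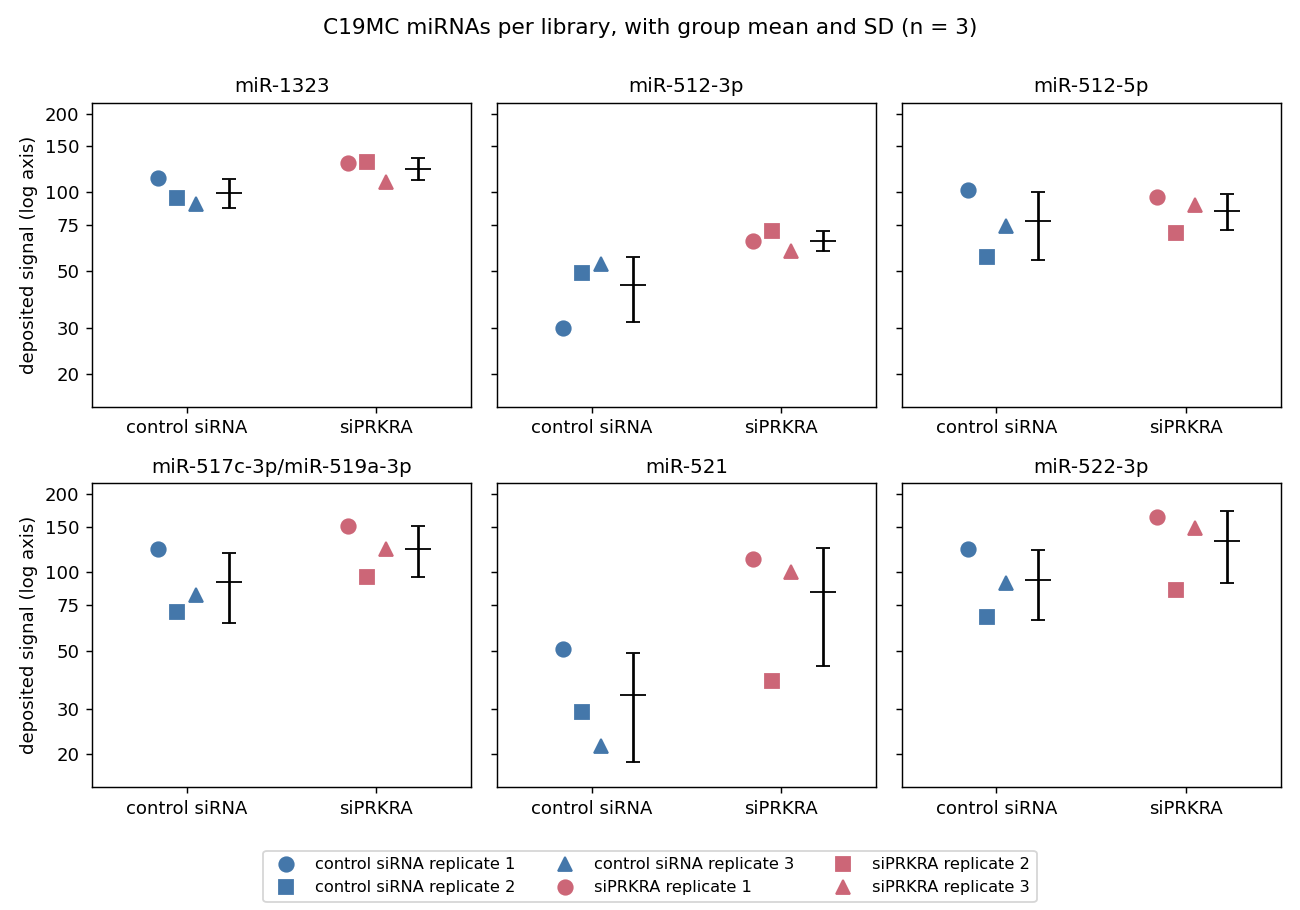
Deposited signal (log axis) of the 6 C19MC probes in each library, with the mean and SD (n = 3) of each group beside the points and the marker shape giving the replicate. miR-512-3p is the only probe whose groups do not overlap, and for miR-521 and miR-522-3p the square of siPRKRA replicate 2 lies within the control range.

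**Figure D3:**
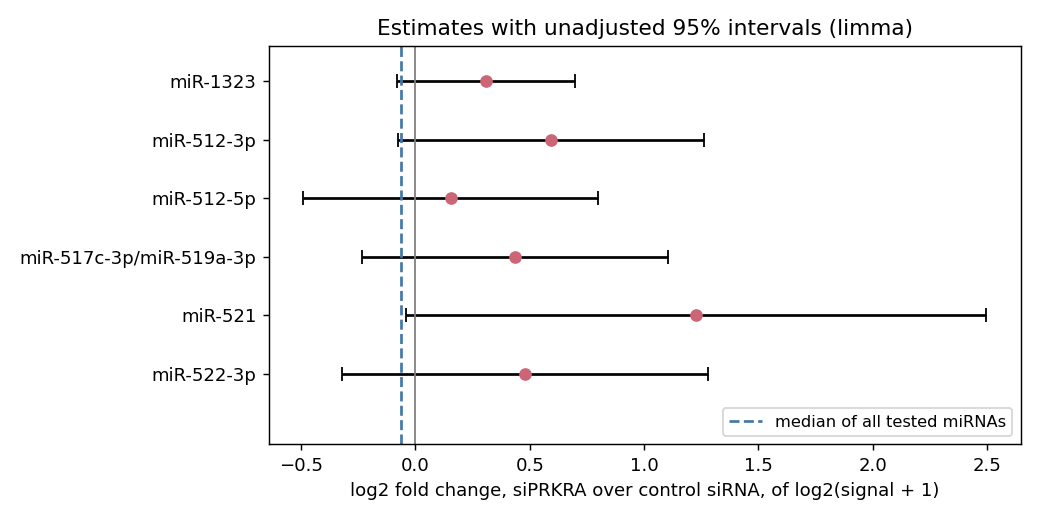
Log2 fold change of siPRKRA over control siRNA for each probe with its unadjusted 95% interval from limma; the dashed line is the median of all 106 tested miRNAs. All 6 estimates lie above 0 and all 6 intervals include 0.

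Several members shared their highest or lowest library within a group. In control cells 5 of the 6 were highest in replicate 1, as were 39.6% of the tested miRNAs; miR-512-3p was the exception and was lowest there. In siPRKRA cells miR-512-5p, miR-521, miR-522-3p and the miR-517c-3p and miR-519a-3p probe were lowest in replicate 2, as were 52.8% of the tested miRNAs, while miR-1323 and miR-512-3p were highest in it. Likeness of pattern was measured as the root mean square difference of log2(signal + 1) over the 6 libraries, each miRNA centred on its own mean. The closest pair were the miR-517c-3p and miR-519a-3p probe and miR-522-3p, at 0.14 log2 units, and the most distant were miR-512-3p and miR-521, at 0.87. The arms of miR-512 were 0.55 apart, farther than miR-512-5p was from the miR-517c-3p and miR-519a-3p probe, at 0.16. From the mean pattern of the 6, to which each of them contributes, miR-512-3p lay 0.45 and miR-521 0.53 log2 units away. The median distance of all 106 tested miRNAs from it was 0.43, and the other members lay 0.11 to 0.24 away.

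**Figure D4:**
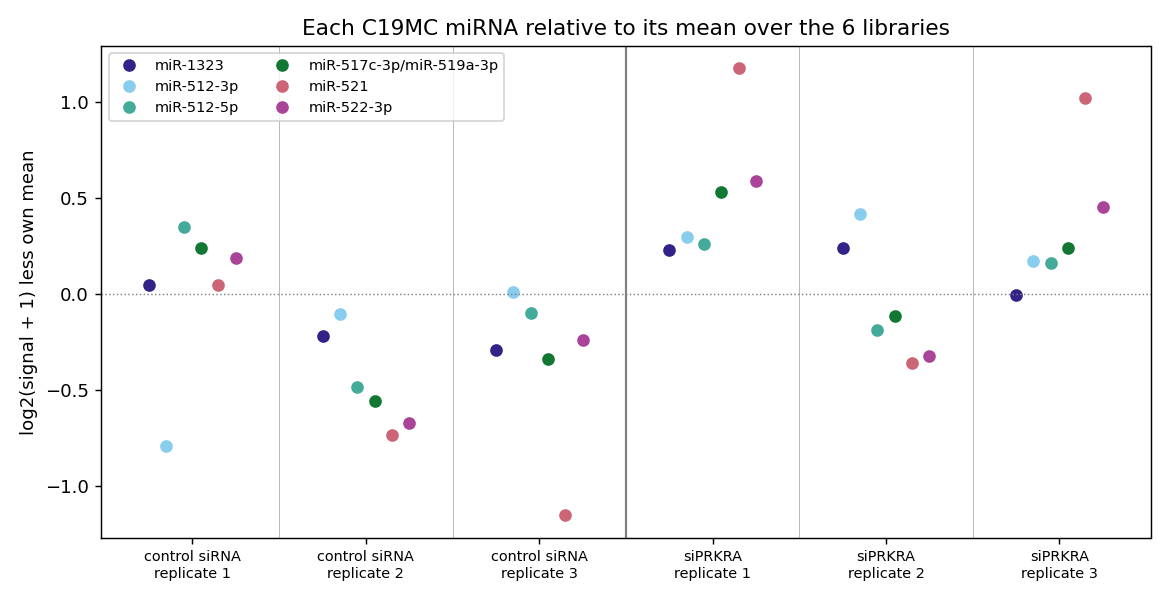
Log2(signal + 1) of each probe less its own mean over the 6 libraries, by library. Control replicate 1 and siPRKRA replicates 1 and 3 hold most of the high points, miR-512-3p is low in control replicate 1, and miR-521 spans the widest range.

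Outside the cluster, the 5 tested miRNAs nearest to the mean pattern of the 6 were miR-421 (0.11 log2 units), miR-27a-3p (0.17), miR-301a-3p (0.22), miR-28-5p (0.23) and the probe that reads miR-181b-5p with miR-181d (0.24). miR-421, encoded on chromosome X, had a signal of 45.0, 35.3 and 37.3 in control libraries, and 67.3, 48.0 and 72.7 after siPRKRA. Its groups did not overlap, as was true with siPRKRA higher of 12.3% of the tested miRNAs. Its difference in log2 signal was 0.65 ± 0.25 (SE; limma, adjusted p = 0.265). miR-27a-3p, encoded on chromosome 19 outside C19MC, differed by 0.35 ± 0.23 (SE) in log2 signal (limma, adjusted p = 0.425). The other three had estimates of 0.24 to 0.74 and did not pass. All 5 were chosen for likeness to a pattern from these same libraries that was on average higher after siPRKRA. Their estimates above 0 therefore follow largely from the choice.

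Added together, the 6 probes gave a signal of 542, 367 and 412 in control libraries, and after siPRKRA it was 716, 491 and 630. As a share of all miRNA signal this was 0.673%, 0.460% and 0.551% against 1.01%, 0.197% and 0.932%. siPRKRA replicate 2 had the lowest share of all libraries. With miR-4454 and miR-720 left out of the total the shares were 0.706%, 0.502% and 0.587% against 1.05%, 0.709% and 0.986%, with siPRKRA replicate 2 at about the level of the highest control library.

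Size and call of these differences depended on the scaling. In counts before the library factor, every one of the 6 was higher in siPRKRA replicates 1 and 3 than in any control library: miR-1323 had 76, 62 and 68 counts in control and 560, 120 and 234 in siPRKRA libraries, and miR-512-3p had 20, 32 and 40 against 281, 65 and 127. Over the 6 probes, single counts ran from 16 to 82 in control libraries and from 35 to 705 in siPRKRA libraries. All miRNA rows together also had more counts in siPRKRA replicates 1 and 3 (305261 and 142684) than in control libraries (51641 to 56192). The share of all tested miRNAs with higher counts in those 2 libraries was not counted, so this is not read as particular to the 6. When counts were scaled by the 5 graded control probes of the assay instead of the deposited factors, 5 of the 6 passed in limma, against a background of 21.7% (23 of 106, all higher). miR-512-5p was the exception (limma, adjusted p = 0.0534). Estimates above 0 were found under this scaling for all 6 and for 98.1% of the tested miRNAs. Scaled so, the median of all tested miRNAs was itself at a log2 fold change of 1.65, and relative to it miR-521 lay at 1.26, miR-512-3p at 0.63, miR-522-3p at 0.53, the miR-517c-3p and miR-519a-3p probe at 0.48, miR-1323 at 0.36 and miR-512-5p at 0.20. A factor per library moves all miRNAs nearly alike, so these distances could hardly differ from those in the deposited scaling.

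**Figure D5:**
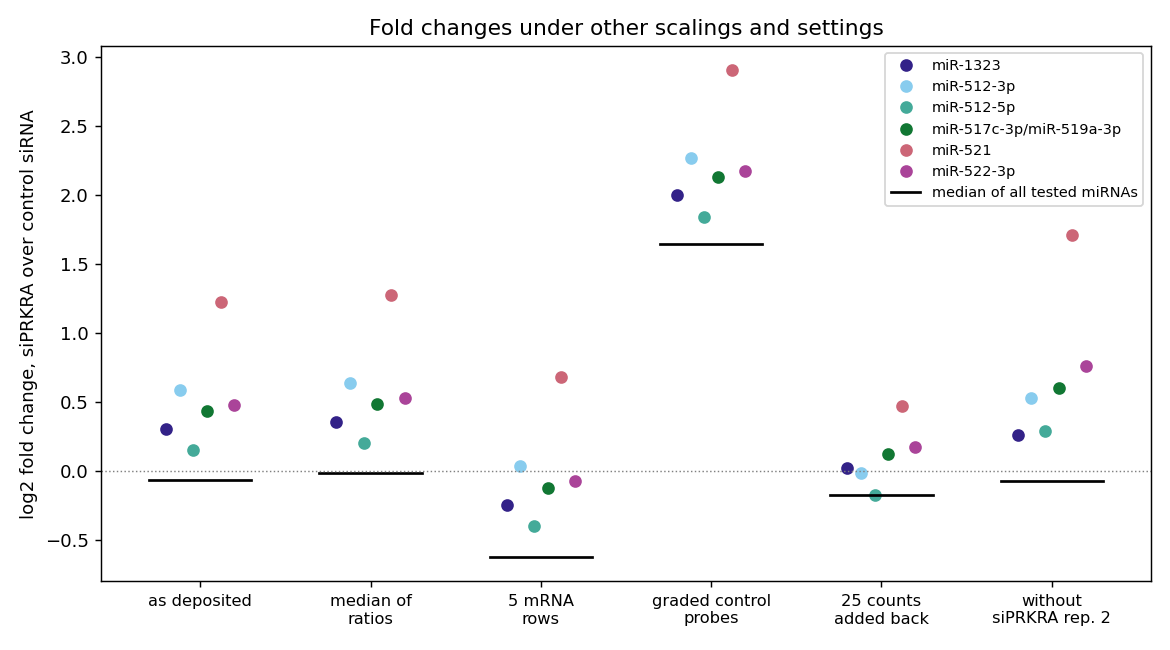
Log2 fold change of the 6 probes (siPRKRA over control siRNA) as deposited, under 3 other scalings, with 25 counts of background added back and without siPRKRA replicate 2; the black bars are the median of all tested miRNAs. The 6 probes move with the bars under each scaling, and with the 5 mRNA rows 4 of the 6 lie below 0. The geometric mean of these mRNA rows was highest in siPRKRA replicate 2.

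Most other rows of the cluster lay at the floor in control cells. Of the 14 other named C19MC rows beside the miR-515 arms, 12 were at or below the floor in all 3 control libraries, and miR-519c-3p was just above it in 1 (1.5, 1.69 and 1.32). The lowest control signal among the 6 was 21.5, that of miR-521. miR-520a-5p, which is not among the listed members, was above the floor in every control library, at 46.5, 29.2 and 22.9, and had 84.8, 36.0 and 74.6 in siPRKRA libraries. Its siPRKRA replicate 2 lay within the control range, as for miR-521, whose pattern was 0.19 log2 units from it, and its difference in log2 signal was 0.94 ± 0.43 (SE; limma, adjusted p = 0.299). Like miR-521, it reached 30 in 1 control and 3 siPRKRA libraries and so was tested only through the group in which it was high. miR-515-5p, at 77.9, 71.9 and 97.8 in control libraries, had a difference of -0.12 ± 0.31 (SE) in log2 signal (limma, adjusted p = 0.856). miR-515-3p, at the floor in all control libraries, had a signal of 41.4, 16.5 and 28.1 in siPRKRA libraries. miR-518b was at the floor in control libraries (1.5, 1.53 and 1.32) and at 13.0, 30.6 and 19.2 in siPRKRA libraries.

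A sequence to search was at hand for 148 of 183 named mature miRNAs. Among these, the ones with the same seed as one of the 6 matched sequences were miR-517a-3p, miR-519b-3p and miR-519c-3p, all of C19MC. They are printed with the bases that differ from miR-517c-3p (the first) or from miR-519a-3p (the others) in capitals.
miR-517a-3p: aucgugcauccCuuuagagugu
miR-519b-3p: aaagugcauccuuuuagagGUu
miR-519c-3p: aaagugcaucUuuuuagagGAu

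They differ from the miRNAs of the shared probe by 1, 2 and 3 bases. miR-517a-3p and miR-519b-3p were at the floor in every control library, in which the shared probe read 70.3 to 123; the probes' efficiencies are not known. In siPRKRA libraries miR-517a-3p had a signal of 13.9, 2.36 and 10.7, miR-519b-3p 2.62, 1.09 and 1, and miR-519c-3p 19.02, 12.1 and 14.5. None of these 3 passed the filter, and cross-reading between such probes was not tested.

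The AAGUGC run in bases 1 to 9 was found in 10 named probes, of which 8 were tested; 148 of 183 named mature miRNAs had a sequence to search. Of the 8, 0 passed. Besides miR-512-3p and the miR-517c-3p and miR-519a-3p probe, 6 lay outside C19MC, and all 6 had estimates below 0, from -1.69 to -0.17 with a median of -0.52. The 4 with the highest signal were probes of the MYC-induced miR-17-92 cluster and its paralogs. Their differences in log2 signal were -0.17 ± 0.12 (SE) for the probe that reads miR-106a-5p with miR-17-5p, -0.20 ± 0.16 (SE) for miR-93-5p, -0.48 ± 0.25 (SE) for the probe that reads miR-20a-5p with miR-20b-5p and -0.56 ± 0.35 (SE) for miR-106b-5p, with adjusted p-values of 0.331 to 0.475 in limma. In the deposited scaling the pair of members with this run thus had estimates above 0 and the other tested probes with it below, a difference that was not tested. The members without the run, and miR-522-3p, whose sequence was not searched, also had estimates above 0. Of the 106 tested miRNAs, 62 had estimates below 0.

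In the authors' deposited table the 6 rows had adjusted p-values between 0.452 and 0.840. That table's level for miR-521 was 4.99 in control and 6.24 in siPRKRA cells on the log2 scale.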

How the data were processed

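Total RNA of 3 control siRNA and 3 siPRKRA samples was counted with the nCounter miRNA assay, per the labels' protocols. The signal deposited by the authors (822 rows: 800 human miRNA rows, 5 mRNA rows, 12 control rows and 5 further accessions) is a background-subtracted count times 1 factor per library with a floor: after division by the recovered factor and removal of the library's constant fraction, 100% of the low values checked were whole within 0.1 in every library. The log2 table deposited by the authors is log2 of the same signal within 0.000234, although its name calls it non-normalised. The authors' deposited comparison table holds p-values, log2 levels and a score, headed fold change, that divides one group's log2 level by the other's. The software, the scaling probes and how background was set: not given in the sources used here.

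limma 3.58.1 (R 4.3.3; lmFit, eBayes with trend) compared the groups on log2(signal + 1), without a block, for the 106 miRNAs whose signal reached 30 in at least 3 libraries, with Benjamini-Hochberg adjustment over all 106, two-sided, at 0.05. Fold changes on this scale understate the change of low values. The arm ratio had an exact permutation test. The members and lists were chosen with earlier results of these data known. miRNAs were named by rule: the 6 members, the 5 nearest patterns, the 4 other C19MC rows with the highest mean, those sharing a seed, and the 4 highest AAGUGC carriers; miR-519c-3p stands also as the row just outside the choice. On data simulated from these 106 miRNAs with 20 changed, over 20 runs, the fit found 66% of changes of 1 log2 unit and 87.5% of changes of 2, with 13 false calls in all. The simulated noise was independent between miRNAs and of equal spread in all libraries, so no library stood apart as siPRKRA replicate 2 does. Those shares pool all 106 miRNAs and do not give the share for the 6 members. Poisson intervals cover counting error only. Tables and plots were made with matplotlib 3.10.9, scipy 1.17.1, pandas 2.3.3 and numpy 2.4.6 under Python 3.11.15.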

Additional observations from a re-analysis of the deposited data

How the results depend on the processing

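The number of changed miRNAs was 0 as reported and stayed 0 in 12 of 17 alternatives. It was 23 with scaling by the graded control probes, 1 with scaling by the 5 mRNA rows, 635 with no filter, and 0 to 4 with single libraries left out (2 without control siRNA replicate 3, 4 without siPRKRA replicate 2). Of the 635, 24 were higher, and only 198 of the 800 rows lay above the floor in any library. The floor itself was 1.32 to 1.53 in control and 1 to 1.09 in siPRKRA libraries, so the 635 cannot be read as changed miRNAs. Of the 6 C19MC miRNAs 5 were called with the graded control probes and 0 in the other alternatives. Estimates below 0 were found with the 5 mRNA rows for miR-1323 (-0.25), miR-512-5p (-0.40), the miR-517c-3p and miR-519a-3p probe (-0.12) and miR-522-3p (-0.072), with 25 counts added back for miR-512-3p (-0.011) and miR-512-5p (-0.17), and without control siRNA replicate 2 for miR-512-5p (-0.048, within a range of -0.048 to 0.37 with single libraries left out); the cause was not tested. The median of all tested miRNAs was itself -0.62 with the 5 mRNA rows and -0.17 with 25 counts added back. The geometric mean of the 5 mRNA rows was highest in siPRKRA replicate 2, at 4233. miR-521 was above 0 in all 17 alternatives, from 0.47 to 2.91. It reached the filter value in 1 control and 3 siPRKRA libraries. Under that filter it was thus tested only through the group in which it was high. The alternatives draw on the same 6 libraries, so the shared sign of its estimates is not independent evidence of a change. The distance of the members' median from that of all tested miRNAs was 0.52 as reported, 0.33 to 0.64 with single libraries left out and 0.25 to 0.73 over all 17 alternatives. The arm difference of miR-512 ranged from -0.74 to 0.027 with single libraries left out and was above 0 only without control siRNA replicate 1. With the replicate number as a block the count was 0; deviations of same-numbered samples correlated at 0.171, -0.088 and -0.073, over 0.1 for 1 of 3 pairs, so the numbers were not taken to pair the samples. edgeR's test, planned for recovered counts, was not run because those counts have a background subtracted. limma-voom was run on the same counts, and its result carries that limit. Counts of 16 to 82 above background limit the precision of the control values.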
